A study of Mus musculus with 16 samples.

Results

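The natriuretic peptide system of the ventricle was described here through 7 genes: the peptides Nppa and Nppb, the receptors Npr1, Npr2 and Npr3, and the processing proteases Corin and Furin. They were chosen by name for their roles in the system, with earlier results of these data known. All 7 were found among the 33399 genes of the deposited count table, and all 7 were among the 16400 genes with enough counts to be tested. The libraries are bulk RNA sequencing of total RNA from ventricles of C57BL/6 wild-type mice with or without chronic kidney disease (CKD). CKD was produced with chow holding 0.25% adenine, given in alternation with plain chow over 6 weeks from 8 weeks of age, with a blood urea nitrogen goal of 40 to 70 mg/dL. Adenine feeding injures the kidney through crystals that form in the tubules. The control mice were kept on plain chow, and no other agent, allele or procedure separates the groups in the labels. Each sex gave 4 control and 4 CKD mice, which makes 4 groups, and each library is named here by its group and a replicate number that carries no order. Blood urea nitrogen of single mice was not analysed here.

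Nppa encodes the precursor of atrial natriuretic peptide and Nppb that of brain natriuretic peptide, hormones that working heart muscle releases when its wall is stretched. Corin, a transmembrane serine protease of cardiomyocytes, cleaves the Nppa precursor, and Furin, a convertase of the secretory pathway, cleaves the Nppb precursor. The mature peptides act on Npr1, a receptor with its own guanylyl cyclase domain that makes cGMP, and are removed by Npr3, the clearance receptor, which has no cyclase domain; Npr2 is the related cyclase receptor whose main ligand is C-type natriuretic peptide. In the adult heart Nppa is mostly an atrial transcript, and its return in the ventricle, together with Nppb, is a widely used sign of load on the ventricular wall.

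Each library held between 10203707 and 13626039 counts. Expression of the sex-linked transcripts matched the sex label in 16 of 16 libraries. A pair of properties of the libraries touches the results below. Library male CKD 4 had the lowest summed level of 8 fibroblast markers, 217 CPM (counts scaled to library size), against 897 to 1113 CPM in male controls, and was also the lowest in 8 endothelial markers (947 CPM). The libraries also differed in how levels followed the GC content of the gene. For each library, the level of every gene relative to its mean over the 16 libraries was ranked against the gene's GC content, and the resulting Spearman correlation, called the GC correlation, ran from -0.49 to 0.55. It was below 0 in 5 libraries, all of them female (3 CKD and 2 control), and above 0 in the other 11, among them all 8 males.

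Nppb and Nppa lie side by side on mouse chromosome 4 in the same direction. In GENCODE M21 on the GRCm38 assembly, Nppb (ENSMUSG00000029019.8) spans chr4:147985788-147987205 on the plus strand and Nppa (ENSMUSG00000041616.9) spans chr4:148000722-148002079 on the plus strand, both with 3 exons, and 13516 bp separate them. The chloride transporter gene Clcn6 starts its annotated span 2179 bp past Nppa on the minus strand, and 2510039O18Rik ends 38473 bp before Nppb. The promoters of the pair are shown because the peptide genes are neighbours, so that a reader can compare the sequences that stand before their start sites. Whether these sequences bear on the levels was not tested. Both are the 250 bases before the RefSeq start site in GRCm38.p6, on the plus strand, 5′ to 3′. The window of Nppa is chr4:148000472-148000721 and that of Nppb is chr4:147985650-147985899. Capitals mark every match, on either strand, of GATAA (the core of sites bound by GATA factors), CATTCC (the M-CAT element), AAGTG (a core of sites bound by NKX2-5) and TATAAA (the TATA box).
Nppa: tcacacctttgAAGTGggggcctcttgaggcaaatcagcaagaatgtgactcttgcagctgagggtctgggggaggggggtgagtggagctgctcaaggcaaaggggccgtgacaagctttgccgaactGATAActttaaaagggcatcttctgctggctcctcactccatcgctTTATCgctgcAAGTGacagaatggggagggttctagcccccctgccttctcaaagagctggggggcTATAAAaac
Nppb: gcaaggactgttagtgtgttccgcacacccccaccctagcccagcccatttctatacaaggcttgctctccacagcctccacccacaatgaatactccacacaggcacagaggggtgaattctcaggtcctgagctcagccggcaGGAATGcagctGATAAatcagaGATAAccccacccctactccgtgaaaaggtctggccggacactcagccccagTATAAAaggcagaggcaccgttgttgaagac
The Nppa window held 2 matches of GATAA, 2 of AAGTG, 1 of TATAAA and 0 of CATTCC. The Nppb window held 2 matches of GATAA, 1 of CATTCC, 1 of TATAAA and 0 of AAGTG. Of the 32851 RefSeq promoter windows of the same length, 22.6% held GATAA, 12.6% CATTCC, 40.7% AAGTG and 12.4% TATAAA on either strand, so each of these letter strings is common, and a match is a description of the window, not a shown binding site. The Nppb matches of GATAA lie 94 to 90 and 83 to 79 bases before the start site, and the CATTCC match, on the opposite strand, lies 105 to 100 bases before it. In the Nppa window the GATAA matches lie 121 to 117 and 75 to 71 bases before the start site, with AAGTG matches 239 to 235 and 65 to 61 bases before it. The TATAAA match lies 9 to 4 bases before the RefSeq start site in Nppa and 31 to 26 bases before it in Nppb. The RefSeq start site of Nppb is 112 bp downstream of the start of the GENCODE gene. RefSeq windows were matched for 7 of 7 genes, 8 windows in all. Those of Npr1, Npr2, Npr3 and Corin held none of the 4 motifs. Furin, which has 2 windows, held 4 matches of AAGTG and 1 of TATAAA in the first and none in the second.

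The first comparison asked whether CKD altered the transcripts of the system in the ventricle, with the 8 CKD mice set against the 8 controls and sex as a term in the fit. No natriuretic gene passed the test: 0 of 7 were called at an adjusted p of 0.05 (edgeR quasi-likelihood test, Benjamini-Hochberg over all genes), beside 0.0854% of all genes tested (14 genes). At an unadjusted p of 0.05, 1 of 7 (Corin) was past the threshold, beside 15.4% of all genes. The estimates ran from a log2 fold change of -0.20 for Npr2 to 0.50 for Nppb, 4 of the 7 were positive, and their median was 0.02, beside a median of 0.00 over all genes tested. DESeq2 and limma-voom also called 0 of 7. Of the 16400 genes tested, DESeq2 called 224 higher and 174 lower, and limma-voom called 121 higher and 78 lower. In bulk tissue, fewer cells of a type and less RNA per cell cannot be told apart, and this holds for every level given here.

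**Figure D1:**
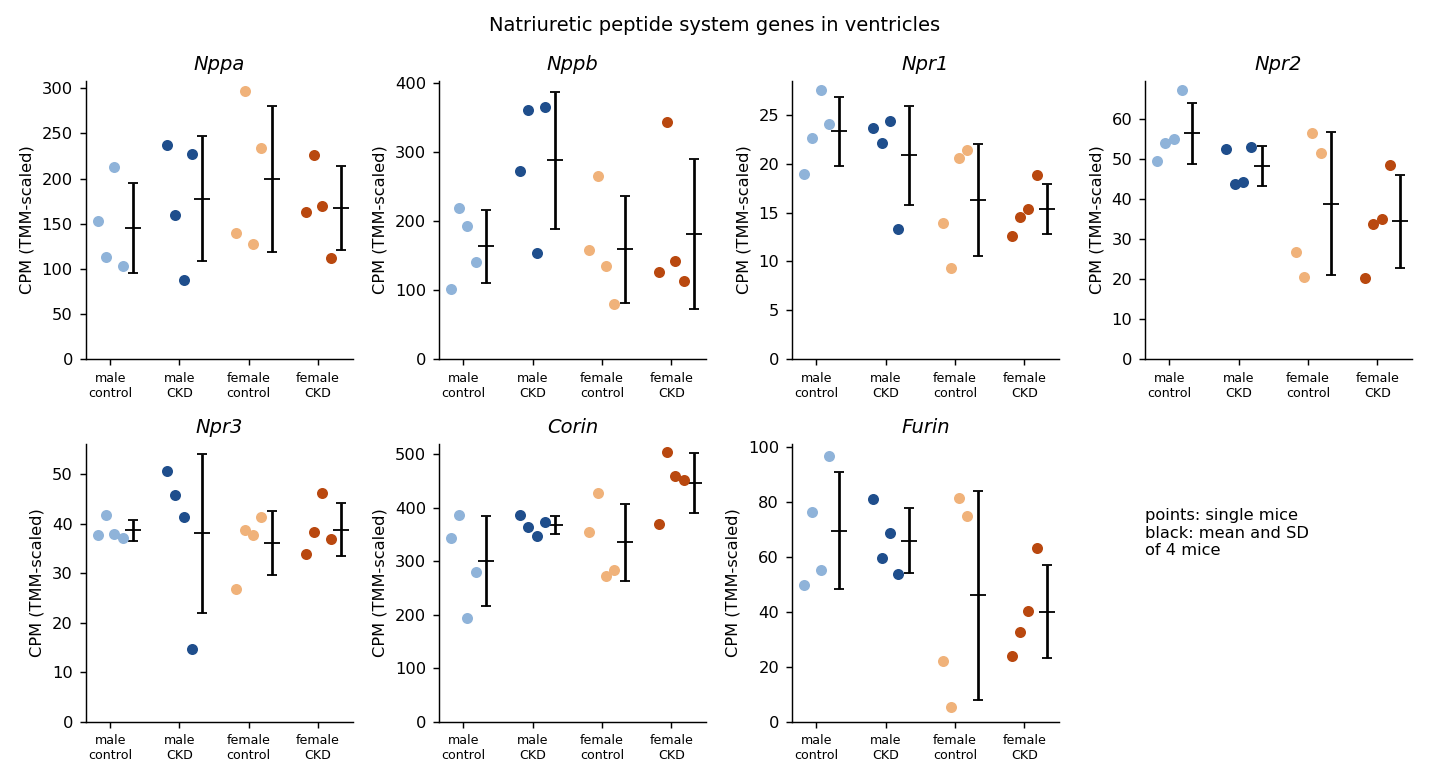
Level of each of the 7 genes (y axis, TMM-scaled CPM, from 0) in the 4 groups of 4 mice (x axis), with a point for each mouse and the mean and SD of the group. The CKD and control points overlap for every gene, Nppb reaches 366 CPM in a male CKD mouse, and Furin is at 5.52 CPM in a female control.

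Among the peptides, Nppa had the same mean level in both conditions. It stood at 153, 113, 213 and 103 CPM in male controls 1 to 4 and at 237, 160, 87.6 and 227 CPM in male CKD mice 1 to 4. In females it stood at 140, 298, 127 and 234 CPM in controls and at 163, 226, 169 and 112 CPM in CKD mice. The lowest library (male CKD 3) was a CKD library and the highest (female control 2) a control, and the groups overlapped over nearly their whole range. The mean was 173 ± 54.8 CPM (SD, n = 8) in CKD and 173 ± 68.6 CPM (SD, n = 8) in controls. The log2 fold change was 0.02 (SE 0.24, adjusted p = 0.976 by edgeR's quasi-likelihood test), with a 95% interval of -0.48 to 0.52, so a change of more than 1.43-fold upward lay outside that interval.

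Nppb had a higher mean in CKD, but the difference did not pass the test. Male controls 1 to 4 had 101, 219, 193 and 141 CPM and male CKD mice 1 to 4 had 272, 361, 154 and 366 CPM. Female controls had 158, 265, 134 and 80.2 CPM, and female CKD mice had 126, 343, 142 and 114 CPM. Of the CKD libraries 4 stood above every control, 3 of them male CKD and 1 female CKD, while the other 4 CKD libraries lay inside the control range. The mean was 235 ± 112 CPM (SD, n = 8) in CKD and 161 ± 61.4 CPM (SD, n = 8) in controls, and the log2 fold change was 0.50 (SE 0.28, interval -0.09 to 1.10, unadjusted p = 0.0925, adjusted p = 0.404 by edgeR). The sample titles carry a code number of unstated meaning, which is 6 in 10 of the libraries. Within those 10 libraries the log2 fold change of Nppb was 0.24, and with that number as a factor in the fit over all 16 it was 0.31. Without female CKD 2 it was 0.29. The summed level of 8 ventricular cardiomyocyte markers was 46969 CPM in male CKD 4 and 40090 CPM in female CKD 2. It was 28198 to 39359 CPM in controls. Male CKD 1 and male CKD 2, also above every control in Nppb, had 32252 and 33515 CPM of these markers. The part of a different mix of cells in the Nppb values was not tested.

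Nppb exceeded Nppa in CPM in 6 of 8 CKD libraries and in 4 of 8 control libraries. In male CKD mice it did so in 4 of 4, with an Nppb to Nppa ratio of 1.15 to 2.26 and a median of 1.69. In male controls the ratio ran from 0.66 to 1.93, in female controls from 0.34 to 1.13 and in female CKD mice from 0.78 to 1.52, so male CKD mice lay just above all female controls and overlapped with the other groups; these ratios were not tested. For the neighbours of the pair, the log2 fold change with CKD was 0.03 for Clcn6 and -0.26 for 2510039O18Rik, and neither passed the test.

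Because Nppa marks atrial muscle, its level was set against 9 other atrial cardiomyocyte markers (Myl7, Myl4, Sln, Bmp10, Mybphl, Dkk3, Stard10, Kcnj3 and Fgf12). All 9 were tested, Myl4 was the most abundant, and Bmp10 was at 0 in at least 1 library. Their summed level ran from 189 to 696 CPM in CKD libraries and from 237 to 873 CPM in control libraries, beside 28198 to 46969 CPM for 8 ventricular markers. In CKD 8 of the 9 had a negative log2 fold change (50.2% of all genes were positive), and their median was -0.38. Of the 9, 0 were called, beside 0.0854% of all genes. Over the 16 libraries Nppa followed the summed atrial markers on a log2 scale, with Pearson's r = 0.73 (permutation p = 0.0016, adjusted p = 0.0192 over 12 relations computed) and Spearman's rho = 0.70 (permutation p = 0.00329, adjusted p = 0.0395). Without the 2 libraries farthest from the median (male control 3 and female control 4) r was 0.73, within the 10 libraries with title number 6 it was 0.79, in males 0.84 and in females 0.69. Male CKD 3, lowest in Nppa, was also lowest in atrial markers (189 CPM).

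The same relation was weak for Nppb. Its r with the atrial markers was 0.15 (permutation p = 0.578, adjusted p = 0.865) and its rho was 0.20 (permutation p = 0.457, adjusted p = 0.685). Without male control 3 and female control 4, which carry the most atrial signal (873 and 758 CPM), r was 0.53; it was 0.26 within title number 6, 0.37 in males and -0.20 in females. Nppa and Nppb themselves were related with r = 0.39 (permutation p = 0.135, adjusted p = 0.308) and rho = 0.36 (permutation p = 0.168, adjusted p = 0.404), with r = 0.37 when the 2 libraries farthest from the median of Nppb were left out, 0.57 within title number 6, 0.53 in males and 0.45 in females. How far atrial tissue in the samples sets the spread of Nppa was not tested.

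**Figure D2:**
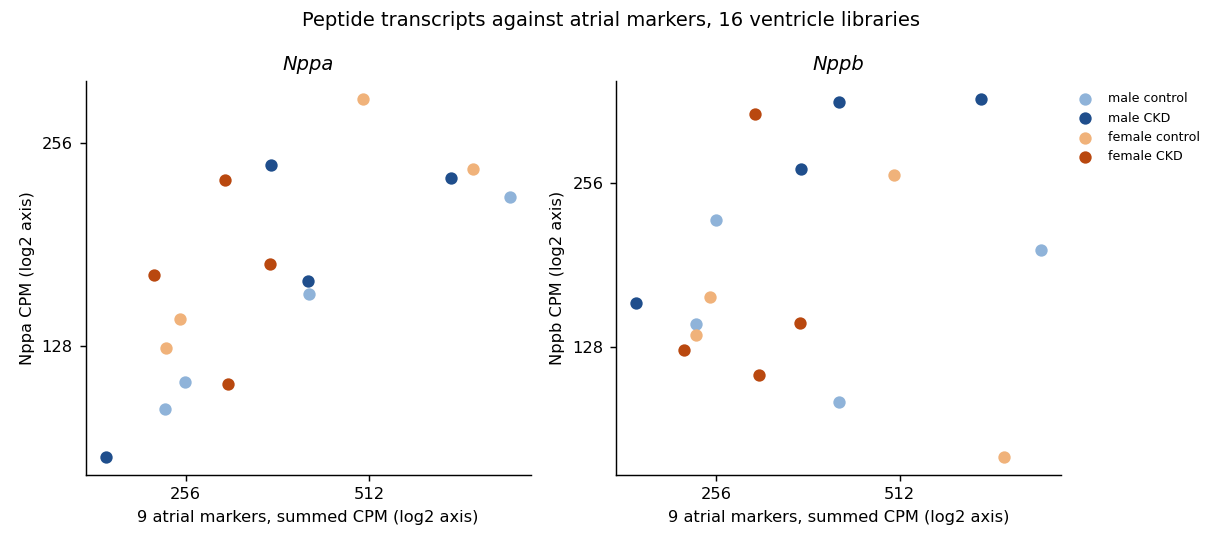
Nppa (left) and Nppb (right) in CPM against the summed CPM of 9 atrial markers in 16 ventricle libraries, both axes on a log2 scale, coloured by group. Nppa climbs with the atrial markers (r = 0.73). For Nppb r is 0.15 over all 16 libraries and 0.53 without male control 3 and female control 4. The 4 highest points of Nppb are CKD libraries.

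Npr1, the cyclase receptor for both peptides, had similar means in CKD and control mice. Male controls 1 to 4 had 19.0, 22.6, 27.6 and 24.1 CPM and male CKD mice had 23.7, 22.1, 24.4 and 13.4 CPM. Female controls had 13.9, 9.37, 20.6 and 21.4 CPM and female CKD mice had 12.7, 14.5, 15.4 and 18.9 CPM. All CKD libraries lay within the range of the controls. The mean was 18.1 ± 4.77 CPM (SD, n = 8) in CKD and 19.8 ± 5.79 CPM (SD, n = 8) in controls, with a log2 fold change of -0.12 (95% interval -0.47 to 0.23, SE 0.17, adjusted p = 0.737 by edgeR).

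Npr2, the receptor of C-type natriuretic peptide, was lower on average in CKD by an amount within the spread. Male controls had 49.4, 53.9, 54.8 and 67.0 CPM, and male CKD mice had 52.3, 43.6, 44.0 and 52.8 CPM. Female controls had 26.6, 20.4, 56.4 and 51.5 CPM, and female CKD mice had 20.3, 33.6, 34.9 and 48.5 CPM. Of the controls 4 stood above every CKD library, and 1 of 8 CKD libraries (female CKD 4) was above the mean of the controls of its own sex. The mean was 41.2 ± 11.1 CPM (SD, n = 8) in CKD and 47.5 ± 15.8 CPM (SD, n = 8) in controls, and the log2 fold change was -0.20 (SE 0.19, interval -0.61 to 0.21, adjusted p = 0.635 by edgeR). Its peptide ligand gene, Nppc, had 0 to 2 counts per library and was not tested.

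Npr3, the clearance receptor, stood between 26.8 and 50.6 CPM in every library but male CKD 4. Male controls had 37.8, 41.8, 38.0 and 37.1 CPM, and male CKD mice had 50.6, 45.8, 41.4 and 14.7 CPM. Female controls had 26.8, 38.7, 37.8 and 41.3 CPM, and female CKD mice had 33.8, 38.3, 46.2 and 36.8 CPM. Of the CKD libraries 3 lay above every control, and male CKD 4 lay below every other library. The mean was 38.4 ± 11.1 CPM (SD, n = 8) in CKD and 37.4 ± 4.62 CPM (SD, n = 8) in controls, and the log2 fold change was 0.04 (SE 0.18, interval -0.33 to 0.42, adjusted p = 0.922 by edgeR). Without male CKD 4 it was 0.17 (unadjusted p = 0.1, adjusted p = 0.439).

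Npr3 is known from endocardium among other cells, and male CKD 4 was also the lowest library in 8 endocardial markers, with 46.5 CPM against 79.4 to 137 CPM in the other libraries; of these markers Hapln1 was at 0 in at least 1 library. Over 16 libraries Npr3 and the endocardial sum gave r = 0.80 (permutation p = 0.00404, adjusted p = 0.0242), but rho was 0.40 (permutation p = 0.122, adjusted p = 0.366). Without male CKD 4 r was 0.43, and without male CKD 4 and female control 2 it was 0.48, so the relation rests on male CKD 4. Within title number 6, which does not hold male CKD 4, r was 0.55. The part of a different mix of cells in the low Npr3 value was not tested.

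Corin, the protease that activates the Nppa product, had the lowest p of the 7 genes. Male controls had 343, 387, 193 and 279 CPM, and male CKD mice had 386, 365, 347 and 373 CPM. Female controls had 356, 428, 273 and 284 CPM, and female CKD mice had 369, 504, 459 and 451 CPM. All 8 CKD libraries lay above the mean of the controls of their sex, 3 of them (all female) lay above every control, and the lowest value of all belonged to male control 3. The mean was 407 ± 56.8 CPM (SD, n = 8) in CKD and 318 ± 74.7 CPM (SD, n = 8) in controls, and the log2 fold change was 0.35 (SE 0.13, interval 0.08 to 0.62, unadjusted p = 0.0137), a 1.28-fold higher level. After adjustment over all genes the difference did not pass the threshold (adjusted p = 0.204 by edgeR, 0.111 to 0.601 over the other settings tried). The estimate stayed above 0 with every library left out in turn, at 0.28 to 0.41, and was 0.20 (unadjusted p = 0.177) in the 10 libraries with title number 6. Over the 16 libraries, Corin and the summed ventricular markers gave r = -0.02 (permutation p = 0.949, adjusted p = 0.949) and rho = -0.10 (permutation p = 0.714, adjusted p = 0.778). The r was -0.35 without male CKD 4 and female CKD 2, 0.33 within title number 6, -0.14 in males and 0.27 in females. In CKD 6 of the 8 ventricular markers had a positive estimate (beside 50.2% of all genes), while Ryr2 (-0.14) and Actc1 (-0.0013) were negative. Of the 8, 2 were higher at an unadjusted p under 0.05 by edgeR (beside 8.12%) and 0 were called (beside 0.0854%). Tnnt2, cardiac troponin T, had a log2 fold change of 0.36 (adjusted p = 0.123 by edgeR), and the sum ran from 32028 to 46969 CPM in CKD and from 28198 to 39359 CPM in controls. The part of these markers in the Corin difference was not tested.

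Furin, the convertase linked to the Nppb product, was the most variable of the 7, and its CKD difference did not pass the test. Male controls had 50.0, 76.6, 55.3 and 96.7 CPM, and male CKD mice had 81.1, 59.8, 68.9 and 53.9 CPM. Female controls had 22.0, 5.52, 81.7 and 74.9 CPM, and female CKD mice had 24.0, 32.8, 40.3 and 63.4 CPM. The 5 lowest libraries were all female, from both conditions, and the highest was 17.5 times the lowest. The mean was 53.0 ± 19.3 CPM (SD, n = 8) in CKD and 57.8 ± 31.2 CPM (SD, n = 8) in controls, with a log2 fold change estimated at -0.14 (SE 0.36, interval -0.90 to 0.62, adjusted p = 0.871 by edgeR). That interval runs from 0.54-fold to 1.54-fold.

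**Figure D3:**
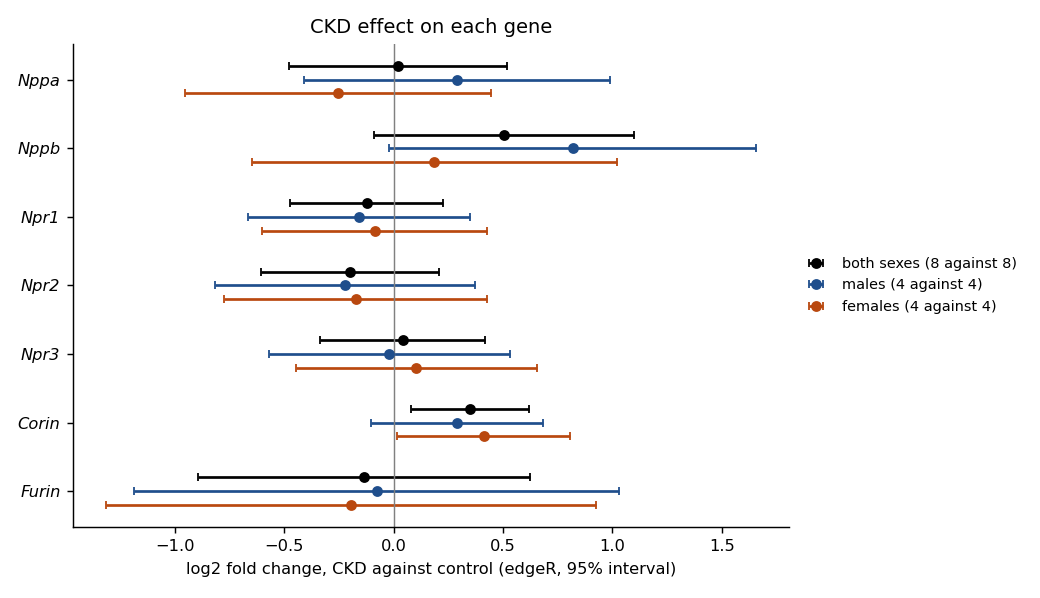
Log2 fold change of CKD against control with its 95% interval (x axis) for the 7 genes (y axis), in both sexes together and in males and females apart. Of the intervals for both sexes together, the one for Corin (0.08 to 0.62) lies clear of 0, and that for Furin (-0.90 to 0.62) is the widest.

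The spread between libraries of a group differed widely among the 7 genes. The within-group SD of log2 CPM was 0.98 for Furin, larger than that of 98.9% of all genes tested, 0.64 for Nppb (90.4%) and 0.54 for Nppa (83.7%). It was 0.28 for Corin, near the middle of all genes (46.5%), and between 0.38 and 0.46 for the 3 receptors. Over the 16 libraries the highest value was 4.56 times the lowest for Nppb, 3.40 times for Nppa, 3.44 times for Npr3, 3.30 times for Npr2, 2.94 times for Npr1 and 2.61 times for Corin.

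The comparisons within each sex use the same mice again. In males alone, 0 of 7 were called, beside 0% of all genes tested, and 0 of 7 had an unadjusted p under 0.05, beside 6.88%. Nppb had the largest estimate, a log2 fold change of 0.82 (SE 0.40, unadjusted p = 0.055, adjusted p = 0.732 by edgeR), with 288 ± 99.2 CPM (SD, n = 4) in male CKD mice and 163 ± 52.6 CPM (SD, n = 4) in male controls. Of the 4 male CKD mice 3 stood above all 4 male controls. Within title number 6 the male estimate was 0.42, from 2 mice against 2. Nppa and Corin both had 0.29, and the receptors and Furin lay between -0.22 and -0.02. Without male CKD 4 the male estimate of Npr3 was 0.26 (unadjusted p = 0.0851) in place of -0.02.

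In females alone, 0 of 7 were called, beside 0.0549% of all genes, and 1 of 7 had an unadjusted p under 0.05, beside 8.34%. That gene was Corin, with 446 ± 56.4 CPM (SD, n = 4) in CKD and 335 ± 71.9 CPM (SD, n = 4) in controls and a log2 fold change of 0.41 (SE 0.19, unadjusted p = 0.0419, adjusted p = 0.581 by edgeR). Nppb had 0.19 and Nppa -0.25, and neither estimate exceeded its error. The female Nppb estimate rested on female CKD 2 (343 CPM): without that library it was -0.36. Npr1, Npr2 and Furin were at -0.09, -0.17 and -0.20, and Npr3 was at 0.10.

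The difference of the CKD effect between the sexes was tested as an interaction, taken as female minus male. None of the 7 passed (0 of 7 called beside 0% of all genes, and 0 of 7 beside 1.68% at an unadjusted p under 0.05). The interaction was -0.54 (SE 0.47) for Nppa and -0.63 (SE 0.56) for Nppb, and between -0.12 and 0.12 for the other 5, with an adjusted p of 1 throughout (edgeR). The 95% intervals of the interaction were wide, -1.53 to 0.45 for Nppa and -1.81 to 0.55 for Nppb.

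Levels were also compared between the sexes. Among controls 0 of 7 differed at the adjusted threshold (beside 0.0366% of all genes), and Npr1 alone had an unadjusted p under 0.05 (beside 6.84% of all genes). Npr1 averaged 16.3 ± 5.72 CPM (SD, n = 4) in female and 23.3 ± 3.57 CPM (SD, n = 4) in male controls, a log2 difference of -0.51 (unadjusted p = 0.049, adjusted p = 0.639 by edgeR). Among CKD mice 0 of 7 were called beside 0.0427%, and 0 of 7 had an unadjusted p under 0.05 beside 15%. Npr1, Npr2 and Furin had lower estimates in females in both conditions, at -0.51, -0.54 and -0.60 among controls and -0.44, -0.49 and -0.72 among CKD mice. Limma-voom with sample quality weights called Npr1 among CKD mice (-0.65, adjusted p = 0.0391). The share of all genes it called in that comparison is not given here. For CKD against control it called 121 genes higher and 78 lower, where edgeR called 7 and 7. Nppa was at 0.46 among controls and -0.08 among CKD mice, and Nppb at -0.04 and -0.67 (unadjusted p = 0.109 among CKD mice, edgeR). Corin was at 0.16 and 0.28, and Npr3 at -0.10 and 0.02.

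The levels of the same 3 genes differed between libraries with a GC correlation below and above 0. Furin ran from 5.52 to 40.3 CPM in the 5 libraries with a GC correlation below 0. In the other 11 it ran from 50.0 to 96.7 CPM. Npr2 ran from 20.3 to 34.9 CPM in the 5 against 43.6 to 67.0 CPM in the 11. The share of all genes that part in this way is not given here, and the GC correlation was itself drawn from gene levels in these libraries. Npr1 ran from 9.37 to 15.4 CPM in the 5 and from 13.4 to 27.6 CPM in the 11, with an overlap at male CKD 4. In Corin the order was the other way, at 356 to 504 CPM with a median of 428 in the 5 and 193 to 451 CPM with a median of 347 in the 11. Nppa, Nppb and Npr3 overlapped across both sets, with medians of 169 against 153, 158 against 154 and 38.3 against 38.0 CPM. The longest annotated transcripts of Npr1, Npr2 and Furin are 57.4%, 55.0% and 55.9% GC. Those of Corin, Npr3 and Nppb are 48.4%, 44.0% and 47.9%. Nppa, at 55.3%, did not share the pattern.

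Within the 11 libraries with a GC correlation above 0, none of the 7 genes was related to it after adjustment over the 12 relations. The largest were Corin (r = -0.64, permutation p = 0.0315, adjusted p = 0.126, rho = -0.59, permutation p = 0.0611, adjusted p = 0.354) and Npr2 (r = 0.61, permutation p = 0.0464, adjusted p = 0.139, rho = 0.55, permutation p = 0.0886, adjusted p = 0.354). Without male control 3 and male control 4 these r values were -0.10 and 0.36, so both rest on those libraries. For Nppa r was 0.46, and 0.78 without the same libraries. For Npr1 it was 0.30, -0.20 without them and 0.61 without male CKD 4. For Furin r was 0.08 (0.02 without them), for Nppb 0.15 (0.28) and for Npr3 -0.07 (-0.14). The 5 libraries below 0 are all female, and 3 females (control 3, control 4 and CKD 4) lie above 0. Both conditions are found in each set. The 5 below 0 all carry title number 6, as does female control 3, while female control 4 and female CKD 4 carry title number 2. Those 3 females had Furin at 81.7, 74.9 and 63.4 CPM, Npr2 at 56.4, 51.5 and 48.5 CPM and Npr1 at 20.6, 21.4 and 18.9 CPM, all inside the range of the males (50.0 to 96.7, 43.6 to 67.0 and 13.4 to 27.6 CPM). With the GC trends of the libraries removed, the female minus male log2 estimates among controls were -0.17 for Npr1, -0.38 for Npr2 and -0.45 for Furin. Among CKD mice they were 0.01, -0.25 and -0.42. The parts of sex, GC trend and title number in these differences were not tested, and the 5 libraries below 0 share all of them. With the GC trends removed, the CKD estimate of Corin was 0.33 (unadjusted p = 0.0136) and that of Nppb was 0.48.

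**Figure D4:**
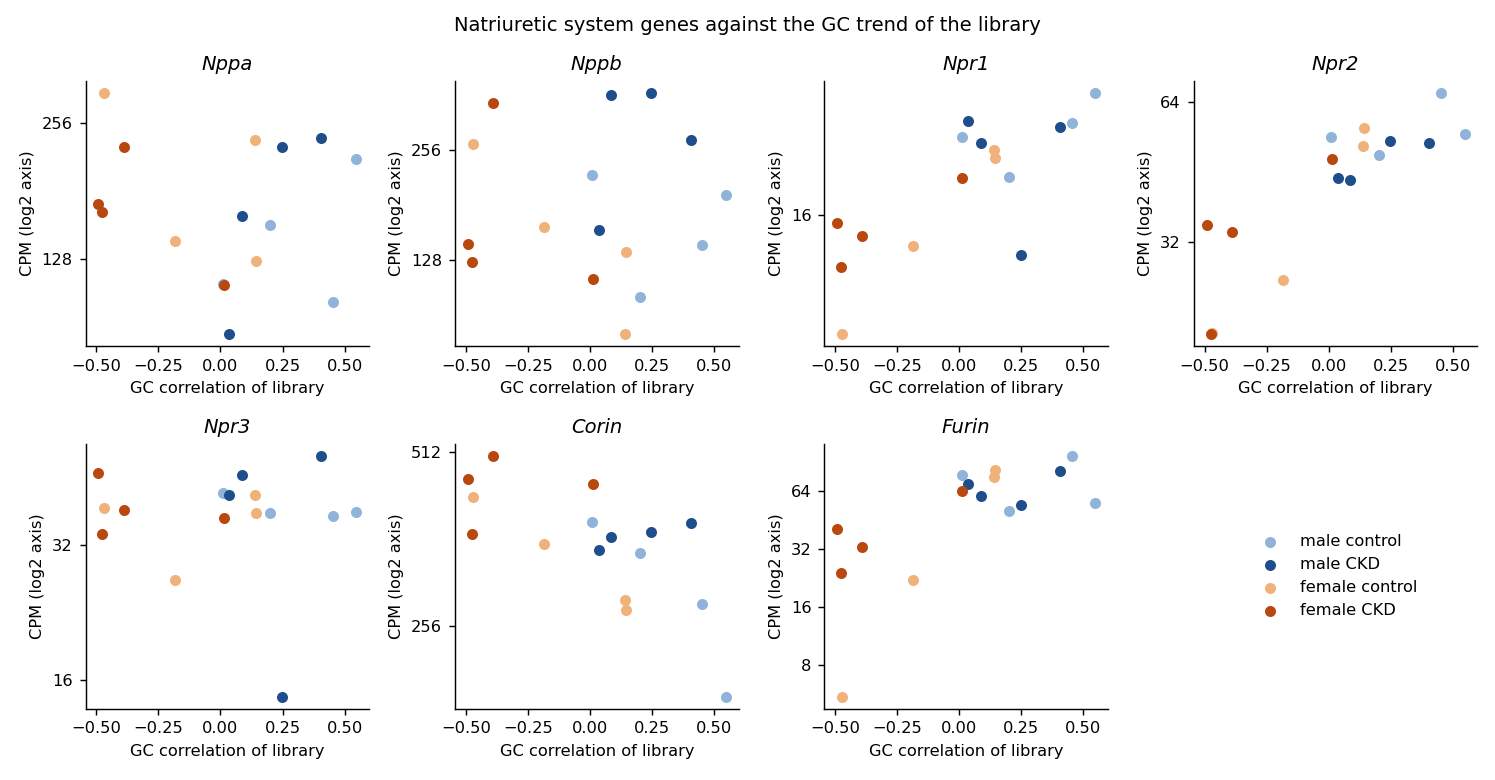
Level of each of the 7 genes (y axis, CPM on a log2 scale) against the GC correlation of the library (x axis), with a point for each of 16 libraries coloured by group. The 5 female libraries below 0 hold the lowest Furin (5.52 to 40.3 CPM) and Npr2 (20.3 to 34.9 CPM) values, while Nppa, Nppb and Npr3 show no such step.

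The order of the 7 transcripts was read per kilobase of exon. Nppb led with 254 ± 122 CPM per kilobase (SD, n = 16), followed by Nppa with 200 ± 69.3, Corin with 67.1 ± 14.6, Npr2 with 9.51 ± 2.91, Furin with 6.04 ± 2.74, Npr3 with 4.04 ± 0.88 and Npr1 with 3.97 ± 1.09. Nppa was above Corin in 16 of 16 libraries, Corin above Npr2 in 16 and Npr2 above Furin in 16, so these steps exceed the spread. Nppb was above Nppa in 11 of 16 libraries, Furin above Npr3 in 11 and Npr3 above Npr1 in 7, so these neighbours do not differ beyond their spread. The order of the peptides also depends on an overlap: 61.5% of the exon bases of Nppa lie opposite the antisense gene Gm13054 (1 to 14 counts per library), and the share of Nppa reads given to neither gene is unknown because the strand setting of the counting is not given. If reads from overlapped bases had all been dropped, the level of Nppa would be 518 CPM per kilobase, above Nppb. For the other 6 genes the overlap is 11.7% or less.

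The other genes whose levels followed each of the 7 most closely were ranked by Pearson's r of log2 CPM over 16 libraries, among 11390 protein-coding genes. These r values describe libraries that share depth, sex and GC trends, and carry no test. For Nppa the closest were Myl7 (r = 0.79), Mybphl (0.77) and Fgf12 (0.75), all 3 on the atrial list above, and the same 3 led when each library was taken as its deviation from its group mean. For Nppb they were Tnfrsf12a, a receptor of the TNF family induced in injured tissue (r = 0.87), Ank1 (0.75) and Amy1 (0.73). For the receptors they were Igfbp4 (0.97), Itpr3 and Ecm1 for Npr1, Crtc2 (0.98), Cdk18 and Cul7 for Npr2, and Sncaip (0.89), Selenop and Prex2 for Npr3. For the proteases they were Cap2 (0.94), Oat and Serbp1 for Corin, and Mllt6 (0.99) and Cdc42bpg for Furin. With deviations from group means each of the 6 genes other than Nppa kept 1 of its 3. Among the 7 themselves the highest r were 0.89 between Npr2 and Furin, 0.86 between Npr1 and Furin and 0.82 between Npr1 and Npr2.

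The wider pathway was covered with 25 other genes of peptide processing, soluble guanylyl cyclase, cGMP breakdown and cGMP action. Of these 24 were in the table, 19 were tested and 0 were called in CKD against control. At an unadjusted p under 0.05, 2 were higher (beside 8.12% of all genes) and 3 were lower (beside 7.24%). The estimates were positive for 5 and negative for 14, with a median of -0.12, beside 50.2% positive and a median of 0.00 over all genes. Markers of vessels and stroma also leaned to negative estimates in CKD, with 0 called: 8 of 8 fibroblast markers (median -0.41, 3 at an unadjusted p under 0.05), 7 of 8 endothelial markers (median -0.33, 2 at that p) and 7 of 8 pericyte and smooth muscle markers (median -0.15). The lean was not particular to these lists. Negative estimates were also held by 7 of 7 tested endocardial, 8 of 9 atrial, 5 of 6 macrophage and 5 of 6 conduction markers. Among ventricular and epicardial markers 2 of 8 and 3 of 6 were negative. The summed fibroblast level ran from 217 to 1184 CPM in CKD and from 897 to 1125 CPM in controls. The part of these markers in the pathway estimates was not tested. The lowest p belonged to Rgs2, a regulator of G protein signalling that cGMP-dependent kinase activates, with 107 ± 32.3 CPM (SD, n = 8) in CKD and 72.4 ± 18.5 CPM (SD, n = 8) in controls; its log2 fold change was 0.57 (edgeR, SE 0.19, adjusted p = 0.164). Vasp, an actin-binding substrate of that kinase, stood at 20.9 ± 7.44 against 29.4 ± 7.14 CPM (SD, n = 8 each), with -0.52 (SE 0.18, adjusted p = 0.182). Ide, a metalloprotease that degrades natriuretic peptides as well as insulin, had 0.26 (SE 0.10, adjusted p = 0.209), and Abcc4, an exporter of cyclic nucleotides, had -0.39 (SE 0.17, adjusted p = 0.284).

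By role, the 4 tested genes of peptide processing were split evenly, with Mme, the peptide-degrading neprilysin, at -0.12. All 3 soluble cyclase subunits had negative estimates, from -0.30 for Gucy1b1 to -0.02 for Gucy1a2. Of the 7 phosphodiesterases 6 were negative, among them Pde3b at -0.32 (unadjusted p = 0.0492) and Pde5a at -0.10, and Pde1c was at 0.26. Prkg1, the main cGMP-dependent kinase of the heart, was at 0.08. Nppc, Ostn, Prkg2, Trpc6 and Gucy1b2 were below the count filter, at no more than 9 counts in any library, and Gucy2c was not found in the table under that name.

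**Figure D5:**
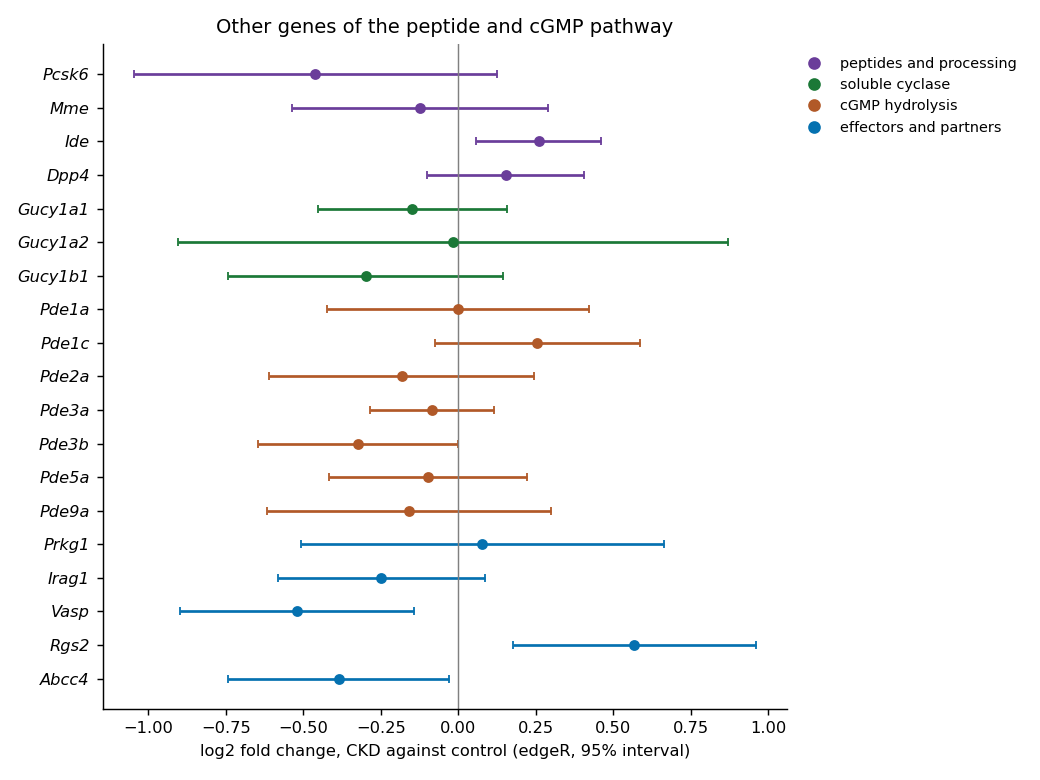
Log2 fold change of CKD against control with its 95% interval (x axis) for the 19 tested pathway genes (y axis), coloured by role. Rgs2 (0.57) and Vasp (-0.52) lie at the ends, and 14 of the 19 estimates are below 0.

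Transcription factors known to act on Nppa and Nppb were covered with 15 genes, 14 of them tested. None was called or had an unadjusted p under 0.05 in CKD against control (0 of 14, beside 15.4% of all genes), and 5 estimates were positive and 9 negative. The lowest p belonged to Gata6 (log2 fold change 0.29, SE 0.20, adjusted p = 0.491 by edgeR) and Mef2a (0.12, SE 0.09, adjusted p = 0.527). Gata4 was at -0.08, Nkx2-5 at -0.20 and Tead1, whose product binds M-CAT elements, at -0.21.

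Beside the peptides, 10 other transcripts of the cardiomyocyte response to load were read. In CKD against control 0 of 10 were called (beside 0.0854% of all genes), and 7 had a positive estimate (beside 50.2%). At an unadjusted p under 0.05 by edgeR, 2 were higher (beside 8.12%) and 1 was lower (beside 7.24%). Those higher were Ankrd1 and Csrp3 (0.25, unadjusted p = 0.0415 by edgeR), and the lower was Acta1. Ankrd1, a titin-associated stretch-response gene, had the lowest p, with 1683 ± 624 CPM (SD, n = 8) in CKD and 1009 ± 243 CPM (SD, n = 8) in controls; its log2 fold change was 0.75 (SE 0.21, unadjusted p = 0.00207, adjusted p = 0.123 by edgeR; 0.0332 to 0.322 over the other settings, the lowest from DESeq2). Acta1, the skeletal actin that returns in loaded ventricles, had 117 ± 59.5 CPM (SD, n = 8) in CKD and 205 ± 106 CPM (SD, n = 8) in controls; its log2 fold change was -0.89 (edgeR, SE 0.30, adjusted p = 0.177). Myh7, the beta myosin heavy chain, had 0.32 (SE 0.15, adjusted p = 0.328). Of 3 transcripts often read together with Nppa and Nppb, Ankrd1 and Myh7 thus had positive and Acta1 a negative estimate, and none passed the adjusted threshold.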

How the data were processed

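RNA was sequenced from ventricles of 16 mice, as paired-end 50 bp reads per the labels' protocols. The deposited table holds unnormalized whole-number read counts for every gene and library. STAR 2.6.1d, Subread 1.6.3 (featureCounts), DESeq2 1.30.1 and the mm10 build are listed in the submitters' processing notes; which annotation release, strand setting and rule for multiply placed reads were used is not stated there, so antisense and near-identical genes may share reads. Groups came from the sex and treatment labels. Each sample has its own title code and was counted as 1 mouse; the labels do not state that each came from a separate animal, and otherwise p-values measure only the spread between these samples. Replicates were not duplicates: between libraries of a group the chi-square per degree of freedom was 7.78 to 56.5.

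Genes were filtered with filterByExpr (minimum count 10, minimum total 15), scaled by TMM and tested with edgeR 4.0.16 in R 4.3.3 (quasi-likelihood F test, two-sided, all 16 libraries, Benjamini-Hochberg over 16400 genes, threshold 0.05). CKD was tested with sex as a covariate, and all other contrasts in a model of the 4 groups. Code for the tests was tested on simulated data. edgeR's common biological coefficient of variation (0.225) and the median CKD standard error (0.149) are large beside counting error, so spread between libraries, not depth, sets the precision. Mice and library preparation both enter that spread and were not separated. Correlations used log2 values and 100000 permutations. Coordinates came from GENCODE M21 (33367 of 33399 identifiers matched) and promoters from RefSeq (GRCm38.p6). The genes and lists were chosen with earlier results of these data known. The 7 genes were named in every comparison; from other lists, genes past the threshold were named, otherwise the 4 (pathway) or 2 with the lowest p, and any other list member in the text was chosen with its value known. Alternatives were DESeq2 1.42.0, limma-voom 3.58.1 with sample quality weights, other scalings and filters, no mitochondrially encoded genes, the title number as a factor or as a subset, removal of GC trends (lowess, span 0.3), no sex term, left-out libraries, and only the 8 libraries compared. The subset of 11 libraries by GC correlation and the exon bases free of overlap were chosen after seeing the data. Of the 3 genes ranked closest to Furin, 1 is not reported here.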

Additional observations from a re-analysis of the deposited data

Results flagged for a closer look

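Nppb in female CKD 2 was 343 CPM, while the other 3 female CKD libraries held 114 to 142 CPM. The gap to the nearest of them took up 0.878 of the range of the group, past Dixon's 95% critical value for 4 samples. This was the only such library among 28 groups of 4 examined (7 genes in 4 groups). Chance alone flags about 1 in 20 such groups, so 1 flag among 28 is no more than chance would give. The rule was applied to CPM and not to log2 values, where the gap takes up less of the range. Without female CKD 2 the female log2 fold change of Nppb with CKD was -0.36 in place of 0.19. The same mouse also had the highest Corin (504 CPM) and the highest Ankrd1 (2854 CPM) of the 16 libraries.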

How the results depend on the processing

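Over the alternatives, 0 of the 7 natriuretic genes were called in any comparison and 0 of the 19 pathway genes in CKD against control, with 1 exception: limma-voom with sample quality weights called 1 of 7 between the sexes among CKD mice (Npr1). The share of all genes called by limma-voom in that comparison is not given here. Among other named genes, DESeq2 called Ankrd1. Corin, Nppb and Npr2 kept the sign of their CKD estimate under every setting and with each library left out. Of 617 estimates under other settings 47 changed sign, and of 832 with a library left out 59 did; the cause was not tested. Without mitochondrially encoded genes, the sign changed for CKD (Nppa -0.00312). With the title number as a factor, the sign changed for CKD (Nppa -0.0337, Npr3 -0.0347 and Furin 0.000582), CKD in males (Furin 0.22), the interaction (Npr2 -0.14) and sex in CKD mice (Nppa 0.13). With only the title number 6 libraries, the sign changed for CKD (Npr1 0.0535), CKD in males (Npr1 0.22, Npr3 0.22 and Furin 0.26), the interaction (Npr1 -0.28, Npr2 -0.15 and Npr3 -0.0424), sex in controls (Nppb 0.25 and Corin -0.0119) and sex in CKD mice (Nppa 0.21 and Npr3 -0.21). With GC trends removed, the sign changed for CKD (Npr1 0.041, Npr3 -0.0121 and Furin 0.0145), CKD in males (Furin 0.00153), CKD in females (Npr1 0.13 and Furin 0.0279), the interaction (Furin 0.0264) and sex in CKD mice (Nppa 0.25, Npr1 0.00555 and Npr3 -0.10). With limma-voom, the sign changed for CKD (Furin 0.0904), CKD in males (Npr1 0.0749, Npr3 0.16 and Furin 0.000337), CKD in females (Nppa 0.0206 and Furin 0.24), the interaction (Npr1 -0.14 and Furin 0.24), sex in controls (Nppb 0.00149) and sex in CKD mice (Nppa 0.37 and Npr3 -0.17). Without male CKD 4 and female control 2, the sign changed for CKD in males (Npr3 0.24 and Furin 0.00229), the interaction (Npr1 -0.30, Npr2 -0.14 and Npr3 -0.13) and sex in CKD mice (Nppa 0.026 and Npr3 -0.27). With no filter, the sign changed for sex in controls (Nppb 0.000989). With each library left out in turn, the estimates that took both signs ranged for CKD from -0.0796 to 0.16 in Nppa, -0.0300 to 0.17 in Npr3, -0.30 to 0.042 in Furin and -0.0294 to 0.0653 in Clcn6. For CKD in males they ranged from -0.26 to 0.0235 in Npr1, -0.19 to 0.26 in Npr3 and -0.23 to 0.12 in Furin. For CKD in females they ranged from -0.45 to 0.00482 in Nppa, -0.36 to 0.55 in Nppb, -0.28 to 0.0304 in Npr1, -0.39 to 0.0365 in Npr2, -0.0168 to 0.16 in Npr3 and -0.57 to 0.21 in Furin. For the interaction they ranged from -0.13 to 0.20 in Npr1, -0.16 to 0.28 in Npr2, -0.18 to 0.29 in Npr3, -0.0346 to 0.28 in Corin and -0.49 to 0.31 in Furin. For sex in controls they ranged from -0.40 to 0.19 in Nppb, -0.16 to 0.0218 in Npr3 and -0.00536 to 0.30 in Corin. For sex in CKD mice they ranged from -0.31 to 0.0855 in Nppa and -0.24 to 0.19 in Npr3. Genes called for CKD over the whole table numbered 7 higher and 7 lower, against 224 and 174 with DESeq2, 121 and 78 with limma-voom, 150 and 84 with the title number as a factor, 24 and 29 with no filter, 13 and 9 without male CKD 4 and female control 2, 11 and 11 with GC trends removed, 3 and 5 within title number 6, 6 and 4 with no sex term, and 4 to 17 and 2 to 26 with a library left out (most without female CKD 4). No paired analysis was possible because the labels give no replicate numbers. Depth was not limiting for the 7 genes, and 4 mice a group leave wide intervals.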
